A study of Homo sapiens with 8 samples.

Results

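The genes described here encode cytokines of the IL6 family (IL6, LIF, IL11 and OSM), subunits of their receptors (IL6ST, OSMR, LIFR and IL6R), the transcription factor STAT3 and its feedback inhibitor SOCS3, 10 genes of 15931 measured by name. They were chosen by their role in the pathway, with the log2 signals of OVCAR-8R against OVCAR-8 arrays already known, so their differences are given as a description without a test. Each of the 10 is measured by 1 probeset that the annotation assigns to a single gene, and all 10 passed the filter on low signal. Affymetrix Human Gene ST arrays, 1 for each of 8 spheroid samples, measured total RNA. The 4 OVCAR-8 arrays carry RNA of the parental ovarian adenocarcinoma line, which had not been selected with drug. The 4 OVCAR-8R arrays, labelled OVCAR-8C, carry RNA of the line that emerged from it under stepwise cisplatin, a DNA-crosslinking platinum drug, up to 5 μM. Resistance persisted after the drug was withdrawn. Both lines grew in the same serum-containing medium as cell aggregates of 300 μm in agarose molds. The resistant arm is 1 selected line, and no source used here says whether it is a single clone.

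Cytokines of the IL6 family signal through gp130, the receptor subunit encoded by IL6ST. IL6 and IL11 first bind their own alpha subunits and then pair gp130 with itself, LIF pairs gp130 with LIFR, and oncostatin M (OSM) pairs gp130 with OSMR or, in humans, with LIFR. Janus kinases on these receptors phosphorylate STAT3, which induces SOCS3, and SOCS3 in turn blocks the receptor. Ascites of ovarian cancer is known to be rich in IL6.

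Array medians of log2 signal ranged from 6.68 to 6.73 for OVCAR-8R and from 6.67 to 6.73 for OVCAR-8. All differences are mean log2 signal of OVCAR-8R minus OVCAR-8 with the standard error from limma (n = 4 arrays per line), and a gene was called at a Benjamini-Hochberg adjusted p under 0.05 and at least 2-fold. Of 10 ovarian carcinoma and epithelial markers, 6 were higher in OVCAR-8R, against 8.37% of all measured genes. The marker lists were written with earlier results of these data known, so this share is given for scale only. In the OVCAR-8 arrays the keratin genes KRT8 and KRT18 were well measured (means of 9.54 and 9.53). Both were called higher in OVCAR-8R, where they averaged 12.50 and 11.42. The Müllerian factor PAX8 (6.51), KRT7 (6.36) and EPCAM (5.88) were low in OVCAR-8, and in OVCAR-8R these had means of 10.28, 10.82 and 7.89. MSLN, also called higher, averaged 6.46 on the parental and 10.29 on the resistant arrays. KRT19, MUC16 and ESR1 were not called and lay only 0.08, 0.07 and 0.06 higher in OVCAR-8R. WT1, a marker of serous carcinoma, averaged 6.19 on the resistant and 7.05 on the parental arrays. Of 12 leukocyte markers, 5 were within the lowest quartile on either line's arrays, among them PTPRC (CD45), and CD68, a lysosomal protein of macrophages and other cells, was the only marker called, with a difference of 2.52. Summed on the linear scale, the 11 leukocyte markers other than CD68 reached 449 to 562 on OVCAR-8R and 487 to 524 on OVCAR-8 arrays. The 5 endothelial markers had differences from 0.11 (VWF) to 0.17 (TEK) and did not pass.

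Among the 10 members, 4 were called higher in OVCAR-8R (IL6, OSMR, LIF and IL6ST), 1 was called lower (LIFR) and 5 were not called (STAT3, IL11, SOCS3, OSM and IL6R). Over all measured genes, 8.37% were called higher, 8.37% lower and 16.7% in either direction, shares given for scale only, since the genes were picked on this contrast. The arrays of the lines did not overlap for 7 of the 10, against 56.8% of all genes. The median difference of the 10 was 0.71, and that of all measured genes was -0.01. IL6 and OSMR ranked 8 and 11 among the rises of 15931 genes.

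**Figure D1:**
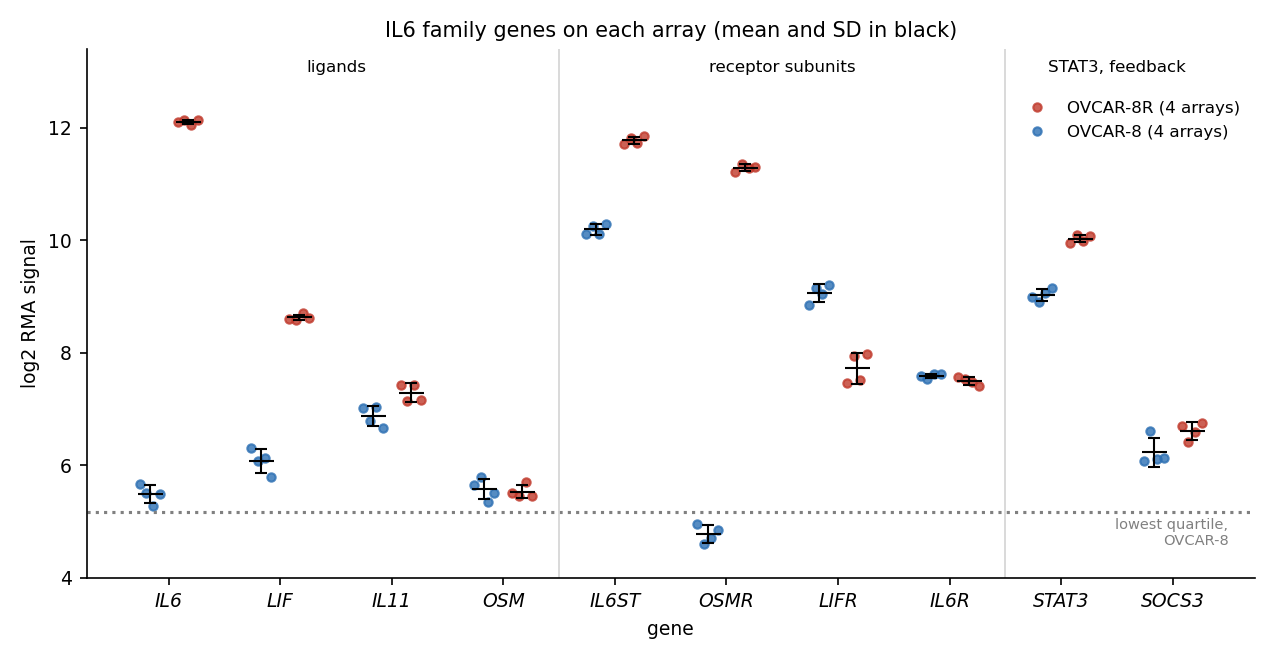
Log2 RMA signal (vertical axis) of the 10 genes on each OVCAR-8R array (red) and each OVCAR-8 array (blue), where black marks give the line's mean with its SD. IL6 and OSMR differ by 6.62 and 6.51, OSM and IL6R overlap between the lines, and LIFR is the one gene with the blue points clearly on top; heights of different genes are not comparable.

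Of the 4 ligand genes, IL6 had by far the widest gap between the lines. IL6, a cytokine of inflammation that also acts on tumour cells, had log2 signals of 12.10, 12.13, 12.06 and 12.14 on OVCAR-8R arrays 1 to 4 and of 5.67, 5.52, 5.28 and 5.49 on OVCAR-8 arrays 1 to 4. The 4 resistant arrays lay within 0.08 of each other and the lowest stood 6.39 above the highest parental array. The difference was 6.62 (standard error 0.09), a 98.3-fold ratio of signals. The parental signal lay at the 30.0th percentile, a little above the lowest quartile, so this ratio may understate the difference. In bulk RNA, a change in the share of cells that express a gene cannot be told apart from a change in RNA per cell. LIF, which sustains stem cells and acts through LIFR and gp130, read 8.61, 8.59, 8.71 and 8.62 in OVCAR-8R and 6.31, 6.07, 6.14 and 5.79 in OVCAR-8. Its lines were also fully apart, and the difference was 2.55 (0.11), or 5.87-fold.

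IL11 and OSM differed little. IL11, a ligand with roles in bone and fibrosis, read 7.43, 7.15, 7.43 and 7.16 in OVCAR-8R and 7.01, 6.79, 7.04 and 6.66 in OVCAR-8. Its lines were separated by only 0.11, with a difference of 0.42 (0.11). OSM, mostly a product of activated leukocytes, read 5.51, 5.46, 5.70 and 5.46 in OVCAR-8R and 5.66, 5.79, 5.36 and 5.52 in OVCAR-8. Its signal overlapped between the lines and sat near the lowest quartile (5.11 and 5.16) in each, with a difference of -0.05 (0.10) that became 0.002 after cyclic loess scaling. The gene of the OSM ligand thus read low on all 8 arrays, while OSMR differed at least 91.4-fold.

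Among receptor genes, OSMR and LIFR, neighbours on chromosome 5 that encode related subunits, went opposite ways. OSMR, which joins gp130 in the oncostatin M receptor and IL31RA in that of IL31, read 11.21, 11.36, 11.29 and 11.31 in OVCAR-8R and 4.96, 4.60, 4.71 and 4.85 in OVCAR-8. Every parental array lay under 5.16, the limit of the lowest quartile in that line, so the difference of 6.51 (0.09) is best taken as a lower bound. LIFR read 7.46, 7.94, 7.52 and 7.98 in OVCAR-8R and 8.86, 9.15, 9.06 and 9.21 in OVCAR-8. Its lines were 0.87 apart, and its difference of -1.34 (0.14) is a signal 2.54-fold higher in the parental line. With each array left out in turn, OSMR stayed between 6.45 and 6.58 and LIFR between -1.43 and -1.25.

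IL6ST, the shared gp130 subunit, read 11.71, 11.83, 11.73 and 11.85 in OVCAR-8R and 10.12, 10.25, 10.12 and 10.30 in OVCAR-8. The gene was already among the brighter probesets of the parental line, above 91.0% of them, and the resistant arrays were higher still, by 1.58 (0.07) or 2.99-fold. Cyclic loess scaling moved that difference to 1.71. IL6R, the alpha subunit that limits which cells answer IL6 without soluble receptor, read 7.57, 7.53, 7.48 and 7.41 in OVCAR-8R and 7.59, 7.54, 7.62 and 7.62 in OVCAR-8. The lines overlapped, with a difference of -0.10 (0.07).

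STAT3 fell just short of the 2-fold threshold. It read 9.96, 10.11, 9.99 and 10.08 in OVCAR-8R and 9.003, 8.91, 9.07 and 9.16 in OVCAR-8, fully apart, with a difference of 0.997 (0.08). The value passed 1 without OVCAR-8R replicate 1 (1.02) or 3 (1.01), without OVCAR-8 replicate 3 (1.01) or 4 (1.04), and after cyclic loess scaling (1.09). LIFR was the called member nearest to the threshold. SOCS3, the feedback inhibitor that STAT3 induces and that binds gp130, read 6.70, 6.41, 6.59 and 6.76 in OVCAR-8R and 6.07, 6.61, 6.11 and 6.13 in OVCAR-8. OVCAR-8 array 2 stood above the other parental arrays and made the lines overlap. The difference was 0.38 (0.13), and 0.51 without that array.

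**Figure D2:**
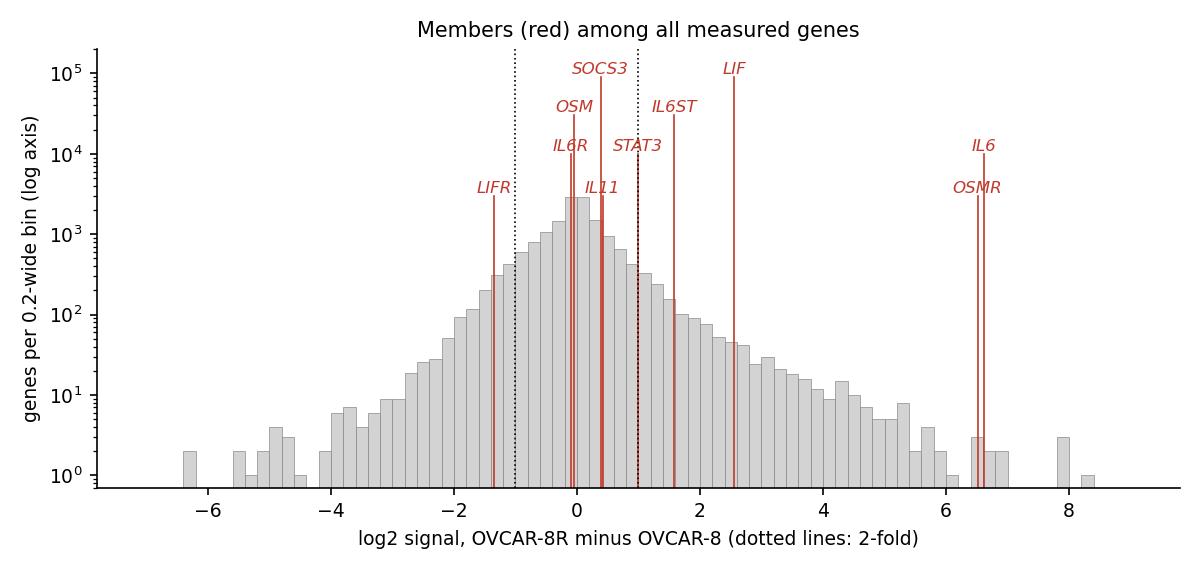
Number of measured genes (log vertical axis, bins 0.2 wide) by difference in log2 signal, OVCAR-8R minus OVCAR-8, with the 10 members in red and 2-fold marked by dotted lines. IL6 (6.62) and OSMR (6.51) lie in the far right tail, LIF (2.55) and IL6ST (1.58) right of the bulk, STAT3 (0.997) at the dotted line and LIFR (-1.34) on the left.

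RefSeq (GRCh38.p14) gave upstream sequence for 8 of the 10 genes. The 250 bases before the annotated start are shown for IL6 and OSMR, the genes with the widest differences, and for LIFR, the one that was lower. Each is written 5′ to 3′ on the gene's strand, and capitals mark matches to the searched motifs. The windows are chr7:22726950-22727199, plus strand (IL6), chr5:38845762-38846011, plus strand (OSMR) and chr5:38595406-38595655, minus strand (the outermost of 3 listed LIFR starts).
IL6: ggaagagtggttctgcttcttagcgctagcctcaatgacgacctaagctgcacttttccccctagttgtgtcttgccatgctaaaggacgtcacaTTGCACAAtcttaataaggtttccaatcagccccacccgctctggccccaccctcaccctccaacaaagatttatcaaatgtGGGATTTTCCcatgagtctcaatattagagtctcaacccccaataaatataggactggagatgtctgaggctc
OSMR: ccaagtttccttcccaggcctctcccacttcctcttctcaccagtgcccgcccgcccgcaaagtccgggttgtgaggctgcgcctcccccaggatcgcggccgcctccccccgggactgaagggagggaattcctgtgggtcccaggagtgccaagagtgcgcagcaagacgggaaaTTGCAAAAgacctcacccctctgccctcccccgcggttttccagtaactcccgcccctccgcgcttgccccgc
LIFR: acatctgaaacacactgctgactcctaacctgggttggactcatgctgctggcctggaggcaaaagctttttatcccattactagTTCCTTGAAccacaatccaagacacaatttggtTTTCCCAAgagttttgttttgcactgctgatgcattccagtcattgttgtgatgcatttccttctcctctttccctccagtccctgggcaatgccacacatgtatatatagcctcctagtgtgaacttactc

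Motifs were searched on both strands as STAT (TTCNNNGAA), AP-1 (TGANTCA), CRE (TGACGTCA), C/EBP (TTNNGNAA), the TATA box (TATAAA) and the NF-kB consensus. The IL6 window held the NF-kB consensus 73 to 64 bases before the start and a C/EBP match 155 to 148 bases before it. The OSMR window held 1 C/EBP match, 73 to 66 bases before the start. The motifs shown do not overlap one another. The LIFR window shown held a STAT match 165 to 157 bases and a C/EBP match 132 to 125 bases before the start. Over all listed starts of the 8 genes, the STAT motif was found in 1 gene (LIFR, 8.09% of 27305 genes), AP-1 in 1 (IL11, 8.06%), NF-kB in 1 (IL6, 6.28%), the TATA box in 1 (LIFR, 13.1%) and C/EBP in 5 (IL6, OSMR, LIFR, IL6R and SOCS3, 38.1%). The CRE letters, present for 2.03% of genes, were in none of these windows. Matches describe the sequence and were not tested as binding sites.

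Neighbouring genes showed whether the OSMR and IL6 values were shared by their surroundings. For each, the 3 nearest genes with a probeset on either side were taken in RefSeq order, 12 genes with LIFR among them. Of the 9 others that passed the filter, 2 were higher and 1 lower, against 8.37% of all genes in each direction. The remaining 6 did not pass. IL6-AS1, counted as higher, passed the filter only through its OVCAR-8R signal. Next to OSMR on the other side, RICTOR, a subunit of the kinase complex mTORC2, had a difference of -0.17 (0.09, adjusted p = 0.151 from limma, 95% interval -0.38 to 0.03), and EGFLAM beyond LIFR one of 0.11 (0.07). WDR70, the third gene before OSMR, had a difference of -0.35 (0.09), under 2-fold. FYB1 and C9, the next genes after RICTOR, lay in the lowest quartile of both lines. OSMR was therefore flanked by no measured gene that was called higher.

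Around IL6, the calls lay on one side. IL6-AS1, a non-coding RNA gene just before IL6 in RefSeq order, rose by 1.74 (0.08). It went from 4.77, 4.77, 4.73 and 4.74 in OVCAR-8 to 6.36, 6.59, 6.60 and 6.41 in OVCAR-8R. Its parental signal lies in the lowest quartile, so it passed the filter only through OVCAR-8R. The difference is a lower bound and is given as a description. How far its probes are separate from IL6 was not tested. STEAP1B, a gene similar in sequence to STEAP1, with which it may share signal, rose by 2.05 (0.11, adjusted p = 3.12e-07 from limma). RAPGEF5, an activator of RAP GTPases, fell by 1.06 (0.09) and was no longer called by treat, the limma test for more than 2-fold. On the far side HYCC1 (0.20), KLHL7 (-0.05) and NUP42 (-0.57) did not pass.

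**Figure D3:**
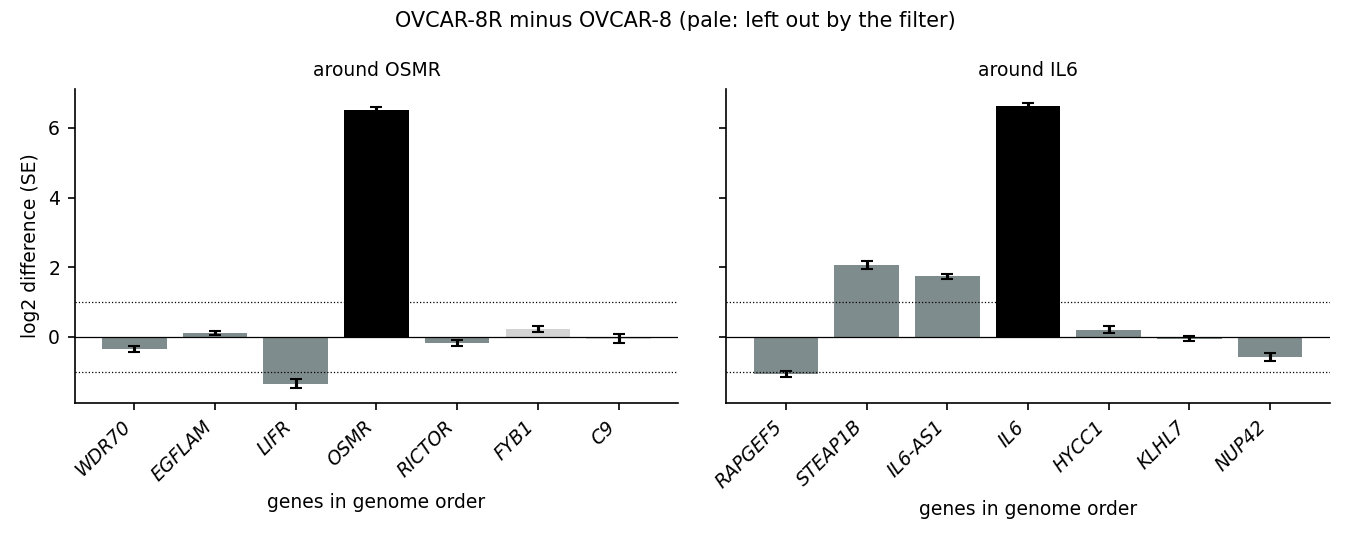
Difference in log2 signal, OVCAR-8R minus OVCAR-8, with standard error (bars), for OSMR and IL6 (black) and the 3 genes on each side in genome order (grey; pale where the filter left the gene out), with 2-fold dotted. The bar of OSMR (6.51) stands between LIFR (-1.34) and RICTOR (-0.17), and that of IL6 (6.62) beside IL6-AS1 (1.74).

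Of 7 other measured genes of gp130-type ligands and receptors, 2 were higher in OVCAR-8R, against 8.37% of all genes, and 5 did not pass. Their median difference was 0.33. This list and those that follow were written with earlier results of these data known, so shares over all genes are for scale only. IL31RA, the gp130-like subunit that pairs with OSMR in the IL31 receptor and lies next to IL6ST on chromosome 5, rose by 2.67 (0.12, adjusted p = 6.25e-08 from limma). It read 7.76, 8.00, 7.94 and 7.80 in OVCAR-8R and 5.16, 5.17, 5.503 and 4.96 in OVCAR-8, with no overlap. The parental mean of IL31RA lay at the 25.6th percentile, just above the lowest quartile, so this difference may be understated. EBI3, the beta subunit of IL27 and IL35, rose by 1.05 (0.13, adjusted p = 9.47e-05) and lost its call with treat, without OVCAR-8R replicate 4 (0.98) and without OVCAR-8 replicate 4 (0.96). IL27RA (0.69), the cardiotrophin gene CTF1 (0.33) and CNTFR, the alpha subunit of the CNTF receptor (-0.53), were each under 2-fold. IL31, the ligand, was in the lowest quartile of both lines.

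Of 8 measured Janus kinase and other STAT genes, 1 was higher and 1 lower, against 8.37% of all genes in each direction. Their median difference was 0.78. JAK1, the kinase that gp130 signalling mainly relies on, rose by 1.14 (0.06, adjusted p = 3.85e-07 from limma). It read 11.06, 11.05, 11.09 and 11.11 in OVCAR-8R and 9.95, 9.91, 10.02 and 9.87 in OVCAR-8, and with treat the call ended. JAK2 and TYK2, the other kinases of these receptors, had differences of 0.92 (0.13) and 0.71 (0.08) and missed 2-fold, JAK2 passing at 1.01 without OVCAR-8R replicate 1. STAT4, which serves IL12 in lymphocytes, fell by 1.47 (0.08, adjusted p = 4.31e-07). STAT6 (0.85), STAT5A (0.84) and STAT5B (-0.71) did not pass.

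Of 14 measured inhibitors and phosphatases besides SOCS3, 1 was higher, against 8.37% of all genes, and 13 did not pass. Their median difference was -0.08. PTPN6 (SHP1), a phosphatase that dampens cytokine receptors, rose by 1.11 (0.08, adjusted p = 1.79e-06 from limma) until treat was applied. PTPN1 (PTP1B), which dephosphorylates JAK2 and TYK2, had a difference of 0.92 (0.07) and was called only with cyclic loess scaling (1.01). SOCS1 (0.56) and SOCS2 (-0.94) did not pass, although SOCS2 reached -1.003 and was called without OVCAR-8 replicate 3. PIAS2, of the family of protein inhibitors of STATs, had a difference of -0.83 (0.16).

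Of 8 genes of the SHP2 and RAS branch and of receptor shedding, 2 were higher, against 8.37% of all genes. The other 6 did not pass, and the median of the 8 was 0.39. SHC1, an adaptor that links receptors to RAS, rose by 1.60 (0.08, adjusted p = 1.56e-07 from limma), from 8.14, 8.03, 7.86 and 7.99 to 9.57, 9.69, 9.53 and 9.62. GAB2, a docking protein of SHP2, was at the threshold with 1.01 (0.07), and its call ended with treat, with median centring or cyclic loess, and when replicate 2 or 4 of OVCAR-8R or replicate 1 of OVCAR-8 was left out (0.984 to 0.997). PTPN11 (SHP2) itself had a difference of 0.06 (95% interval -0.08 to 0.20) and the RAS exchange factor gene SOS1 one of -0.90 (0.11). ADAM17 and ADAM10, proteases that can release soluble IL6 receptor, had differences of 0.59 and 0.33.

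**Figure D4:**
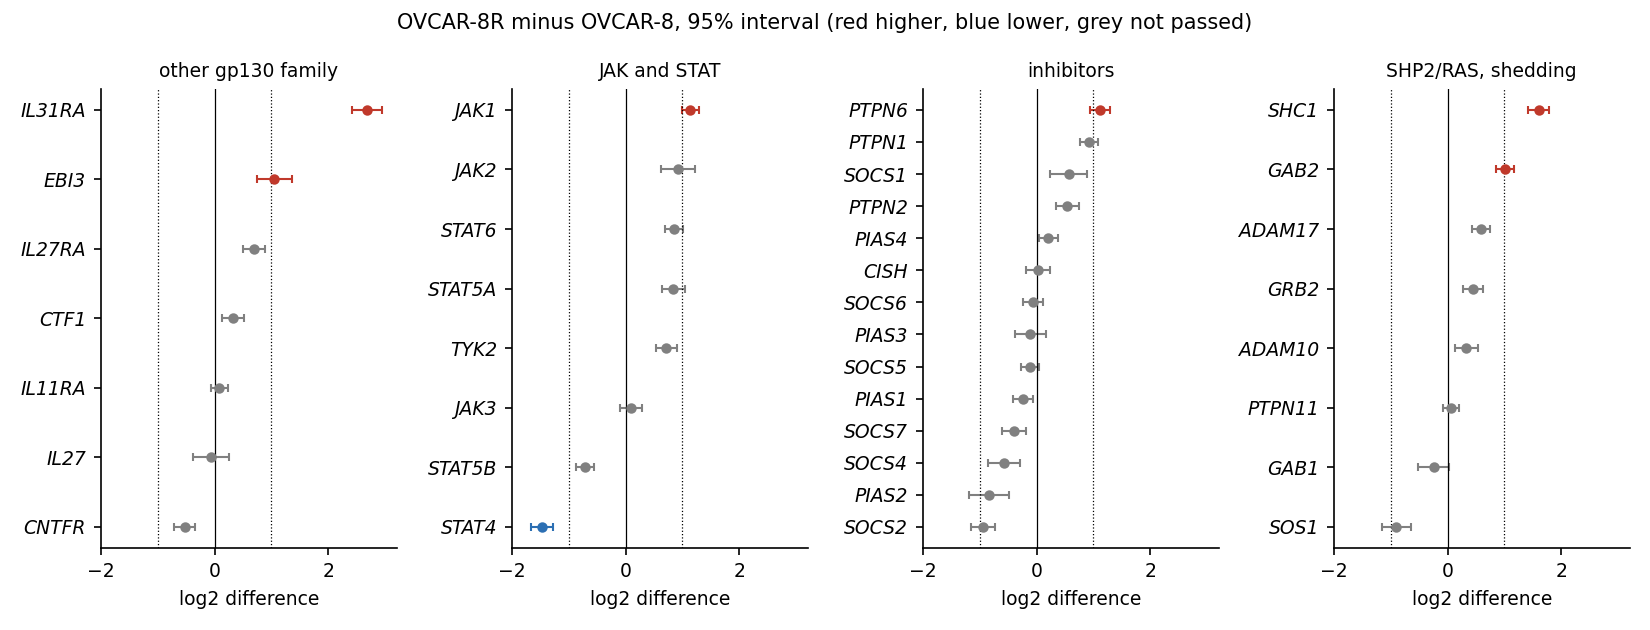
Difference in log2 signal, OVCAR-8R minus OVCAR-8 (horizontal axis, with 95% interval), for 4 lists of pathway genes; red genes were called higher, blue lower, grey not called, and dotted lines mark 2-fold. IL31RA (2.67), SHC1 (1.60) and STAT4 (-1.47) stand clear of 2-fold, while JAK1, PTPN6, EBI3 and GAB2 have intervals that reach it.

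A further list held 21 genes known to be induced by STAT3, several of which NF-kB and other pathways also induce. Of these 21 genes, 8 were higher in OVCAR-8R, against 8.37% of all measured genes, and 13 did not pass. The list was written with earlier results of these data known, so shares over all genes are given for scale only. The median difference was 0.61, and when size was disregarded, limma's adjusted p was under 0.05 for 15 with higher and 2 with lower signal, against 27.6% and 30.0% of all measured genes. ICAM1, a leukocyte adhesion molecule, rose by 5.27 (0.13, adjusted p = 1.27e-09), from 5.61, 6.26, 6.07 and 6.04 in OVCAR-8 to 11.23, 11.38, 11.23 and 11.24 in OVCAR-8R. NNMT, which methylates nicotinamide, rose by 3.08 (0.09, adjusted p = 4.86e-09) and the stress response gene IER3 by 2.62 (0.06). The survival gene BCL2L1 (1.89), the cell cycle gene CCND1 (1.81), the acute phase regulators CEBPB (1.52) and CEBPD (1.49) and the interferon regulatory factor gene IRF1 (1.22) rose as well, and only the call of IRF1 among the 8 ended with treat.

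Other genes of this list stayed under 2-fold or ran the other way. BCL6 (0.97), a repressor, and HIF1A (0.96), the hypoxia factor, were close to the threshold. Each passed it in 3 of the alternatives, BCL6 when replicate 2 of OVCAR-8R (1.03) or replicate 1 (1.001) or 3 (1.004) of OVCAR-8 was left out, and HIF1A with cyclic loess (1.09) and when replicate 1 of OVCAR-8R (1.04) or replicate 4 of OVCAR-8 (1.001) was left out. MYC (0.61), PIM1 (0.51), VEGFA (-0.20), TIMP1 (-0.18) and the immediate early gene FOS (-0.58) did not pass. Nor did BIRC5 (-0.22) and MCL1 (-0.06).

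Genes of the hepatic acute phase response, the classic target of IL6, were mostly near background. Of 17 with a probeset, 9 were in the lowest quartile of both lines, among them CRP, SAA1, FGA and HP. Of the 8 measured, 2 were higher, against 8.37% of all genes, and 6 did not pass, with a median of 0.05. C3, the central complement component, rose by 5.05 (0.09, adjusted p = 2.79e-10 from limma), from 5.93, 6.01, 5.84 and 5.72 to 10.84, 11.06, 10.79 and 10.996. SERPINA1 (alpha-1 antitrypsin) rose by 1.31 (0.16, adjusted p = 6.05e-05), a call that treat ended, and SERPINA3 had a difference of 0.44 (0.09). ORM2 ran lower in OVCAR-8R, with a difference of -0.73 (0.24), and was not called.

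**Figure D5:**
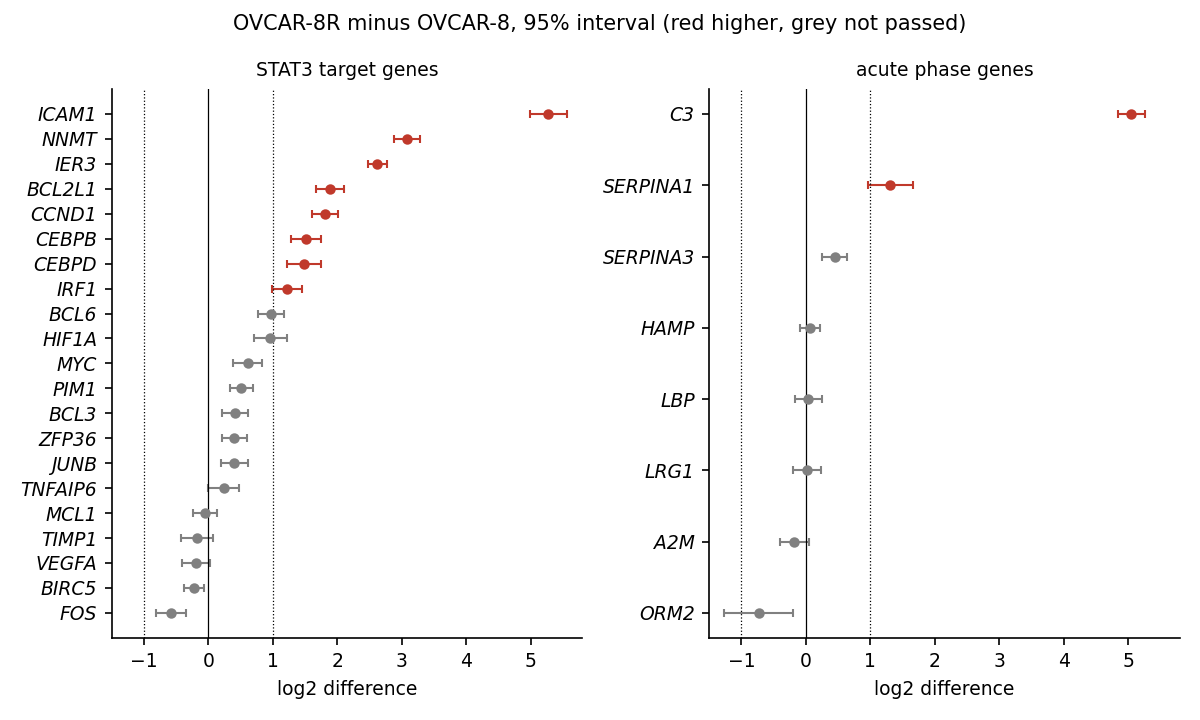
Difference in log2 signal, OVCAR-8R minus OVCAR-8 (horizontal axis, with 95% interval), for STAT3 target genes and for acute phase genes; red genes were called higher, grey not called, and dotted lines mark 2-fold. ICAM1 (5.27) and C3 (5.05) stand far from the rest of their lists.

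The genes with profiles most like OSMR over the 8 arrays, after each gene was centred on its own mean, were IL6 (root mean square difference 0.11 on the log2 scale), the long non-coding RNA gene UCA1 (0.14) and the cytokine gene IL18 (0.15). Those most like IL6 were IL1B (0.10), OSMR (0.11) and IL18 (0.18). The likeness mainly reflects the size of the difference between the lines, which was 6.59 for UCA1, 6.57 for IL18 and 6.65 for IL1B. The parental signals of OSMR, IL18 and IL1B lie in the lowest quartile, where sizes are lower bounds.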

How the data were processed

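The deposited values are probeset intensities on the linear scale, which the authors obtained with RMA in Affymetrix Expression Console and which were put on the log2 scale here. RMA equalizes the distributions of the arrays. Per the labels, arrays were grouped by line, 4 each; the labels call them biological replicates without saying whether cultures were separate, so p-values measure the spread among arrays, which may be partly technical. Following the methods, a probeset whose mean was in the lowest 25% for each line was dropped, and 25628 of 33297 were kept. A gene with several probesets was represented by the brightest. Differences were fitted over all kept probesets with lmFit and eBayes of limma 3.58.1 (R 4.3.3) in place of the methods' t-test, which was run as an alternative. The fit was tested on simulated data. Motifs were searched with Python 3.11.15. Precision is limited by the 4 arrays per line.

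The members and the gene lists were chosen with earlier results of these data known. The rule for naming genes took every member, the listed pathway and marker genes with those called first, the neighbours of OSMR and IL6, and the 3 profiles most like each of them. Alternatives were other filters, the methods' t-test, an intensity trend, treat, median centring, cyclic loess, the mean of probesets, a block for replicate number and the omission of single arrays.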

Additional observations from a re-analysis of the deposited data

Results flagged for a closer look

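Among 144 combinations of a named gene and a line, 7 held 1 array that stood apart from the other 3 by more than Dixon's limit for 4 values, where chance gives about 5%. SOCS3 read 6.61 on OVCAR-8 array 2, against 6.07 to 6.13 on the others. On OVCAR-8 arrays, IL27RA read 6.77 on array 4 (others 6.60 to 6.61), PTPN6 read 6.76 on array 1 (6.63 to 6.64), IER3 read 10.19 on array 3 (10.11 to 10.12) and CEBPD read 7.30 on array 4 (7.75 to 7.81). On OVCAR-8R arrays, ICAM1 read 11.38 on array 2 (11.23 to 11.24) and EGFLAM read 5.87 on array 4 (5.99 to 6.01). For SOCS3 and EGFLAM the array decided whether the lines overlapped.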

How the results depend on the processing

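Every member kept the sign of its difference under the alternatives run, except OSM, whose difference of -0.05 lay between -0.12 and 0.02 with each array left out. With each array left out in turn, 4 to 5 members were called higher and 1 lower. The test for more than 2-fold (treat) reduced the genes called from 1334 to 832 higher and from 1334 to 643 lower, by its construction. With it, 1 gene was higher among other gp130 ligands and receptors, 0 among Janus kinases and STATs, 0 among inhibitors, 1 in the SHP2 and RAS branch and 1 among acute phase genes, and 0 neighbours were lower. At an adjusted p under 0.05 without a limit on size (eBayes), 5 Janus kinase and STAT genes were higher and 2 lower, and 5 inhibitors were higher and 5 lower, against 27.6% higher and 30.0% lower over all genes. Cyclic loess gave 2 higher inhibitors, and median centring and cyclic loess left 1 higher gene in the SHP2 and RAS branch. The filter at the median of signal left 1 higher neighbour, since fewer genes were tested. Leaving out single arrays gave 1 to 2 higher genes among gp130 ligands and receptors, 1 to 2 among Janus kinases and STATs, 1 to 2 in the SHP2 and RAS branch, and 0 to 1 lower inhibitors. Where no reason is named, the cause was not tested. The methods' t-test, the intensity trend and the mean of probesets moved no count by over 1.5 times. Deviations of same-numbered arrays from their line means correlated with r of 0.165, -0.323, -0.0515 and 0.443, so the numbers were not taken as pairs. With a replicate block, 1334 genes were higher and 1334 lower, and no count of a list changed. A block leaves each difference unchanged in this balanced design, so these counts say little about pairing. Of the 4 OVCAR-8R arrays, 1 correlated best with the OVCAR-8 array of its number. Signals near the lowest quartile, as for OSMR, IL6 and IL31RA in OVCAR-8 and OSM in both lines, limit what the sizes can show.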

Other observations

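Within OVCAR-8R, arrays 1 and 3 read apart from arrays 2 and 4 for several of these genes, a division that the labels do not give. LIFR read 7.46 and 7.52 against 7.94 and 7.98, IL6ST read 11.71 and 11.73 against 11.83 and 11.85, JAK2 read 6.87 and 6.96 against 7.40 and 7.35, and HIF1A read 11.25 and 11.37 against 11.61 and 11.68. IL11 ran the other way, with 7.43 and 7.43 against 7.15 and 7.16. Some of these genes divided by the same numbers in OVCAR-8, where arrays 1 and 3 read 7.01 and 7.04 against 6.79 and 6.66 for IL11, 10.12 and 10.12 against 10.25 and 10.30 for IL6ST, and 8.86 and 9.06 against 9.15 and 9.21 for LIFR. JAK2 and HIF1A did not divide this way in OVCAR-8. Over the probesets kept, deviations from the line's mean correlated between arrays 1 and 3 with r = 0.427 in OVCAR-8R and -0.225 in OVCAR-8. Between arrays 2 and 4, r was 0.484 in OVCAR-8R and -0.588 in OVCAR-8. Deviations from the mean of the same 4 arrays correlate negatively on average by construction, so a negative r here need not mean opposed arrays. The part of this division in the differences between the lines was not tested beyond leaving out each array.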
